A study of Homo sapiens with 64 samples.

Results

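DLD1 is a human colorectal cancer cell line, and these data followed how its RNA changed with time in suspension culture after labeling with CFSE. CFSE is a dye that binds to protein inside living cells and is diluted at each division, which is why it is used to find cells that have divided little (label-retaining cells, LRCs). The comparison was CFSE d5 against CFSE d1, the names in the sample labels, and the study's own design text gives the later time as day 6. Its members were all 8 CFSE-labeled control libraries of DLD1 (4 at d1 and 4 at d5), chosen by their labels out of 64 libraries in the series. The labels give these 8 libraries no LRC or BULK sort, and the design text calls them bulk populations. Cells of all groups grew as non-adherent spheroids with the growth factors bFGF and EGF. The nearest groups were the 8 DLD1 controls labeled DMSO (4 at d1 and 4 at d5), which the design text gives as grown without the dye, and the 8 DLD1 libraries sorted by dye on day 6 into 4 LRC and 4 BULK. The controls were made to find effects of the dye and of culture. All 24 libraries came from a single cell line, and the study's methods describe its experiments as biological quadruplicates without saying how these cultures were set up. The p-values measure the spread between these libraries, each taken as independent.

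As background, a colon cell placed in suspension loses its contact with a flat surface, is exposed to growth factors and then builds contacts with its neighbors. Immediate early genes such as FOS, JUN and EGR1 encode transcription factors that are made within minutes of a growth factor or stress signal and are quickly shut off. Wnt signaling keeps crypt stem cells dividing and, when APC is lost as in most colorectal cancers, runs without its usual brake. Cholesterol synthesis is controlled by SREBP2, a factor that is released to the nucleus when membranes hold little sterol.

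RNA levels are given in CPM, the read count of a gene relative to all reads on genes in its library, scaled between libraries by edgeR's TMM method. Between 12738718 and 17160555 reads were counted on genes in each of the 8 libraries. Tests were edgeR's quasi-likelihood test on the counts, and adjusted p is after Benjamini-Hochberg over all 14518 genes tested. Reads outside annotated genes made up 12.1% to 14.8% at d1 and 5.2% to 7.31% at d5, with no overlap, and 21409 to 22695 genes had a count at d1 against 19280 to 20559 at d5. The part of this shift in the results was not tested. The 4 replicates of a day were not equally far apart. Their distance was taken as a chi-square per gene, the squared difference of counts relative to that from counting noise alone. For replicates 1 and 2 this ratio was 5.94 at d1 and 5.45 at d5, and for replicates 3 and 4 it was 4.09 and 6.78. Across these pairs the ratio was 54.2 to 70.8 at d1 and 17.3 to 35.4 at d5. Values are therefore printed for each replicate, in the order 1 to 4. The p-values printed for genes count the 4 replicates of a day as independent. With each pair of close replicates summed to 1 library, 59 of 126 named-gene results were weaker and 67 the same. That setting has fewer libraries. Among the DMSO controls, the library labeled DMSO d1 replicate 4 went against its label, with a correlation of log2 CPM of 0.992 with DMSO d5 replicates 3 and 4 and of 0.958 to 0.968 with the other DMSO d1 libraries. Whether it was mislabeled was not tested. The main counts that rest on it are given with and without it. Where no second value is given, results from DMSO libraries and from the interaction include it.

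Colorectal epithelium markers were present at both times. EPCAM, an epithelial adhesion protein, was at 737, 689, 756 and 792 CPM at d1 and 889, 978, 825 and 924 CPM at d5. The 12 markers of this list summed to between 5680 and 7680 CPM at d1 and between 7480 and 8830 CPM at d5. Markers of fibroblasts, endothelium, blood and immune cells summed to 28.6 to 51.6 CPM over 18 genes at d1 and to 14.9 to 19.5 CPM at d5. Of these 18 genes, 4 had no count in any d1 library and 7 in none at d5, and the T cell gene CD3E, the endothelial gene KDR and the fibroblast gene LUM had none in all 8. Of its 4 tested genes, CD68, a lysosomal protein of macrophages, and COL1A1, a collagen chain, fell with time, both of them also made at low levels by other cells.

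**Figure D1:**
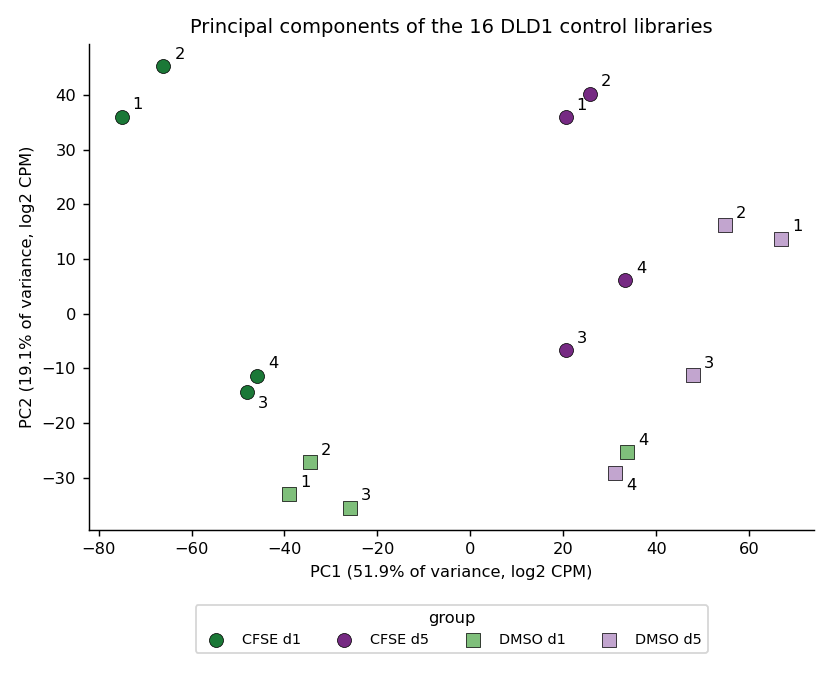
Principal components of log2 CPM in the 16 DLD1 control libraries, with the share of variance on each axis in percent. Each point is a library, colored by dye and day and numbered by replicate. The first component (51.9% of the variance) separates the 8 CFSE libraries by day, CFSE replicates 1 and 2 lie together and apart from 3 and 4, and the library labeled DMSO d1 replicate 4 lies at 33.7 among the d5 libraries while the other DMSO d1 libraries lie between -39.0 and -25.9.

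The labeled cells at d5 differed from those at d1 over a large part of the transcriptome. The transcription factor gene SNAI1, the immediate early gene FOSB and the matrix gene CCN2 fell most among well expressed genes, and the Wnt inhibitor APCDD1 and the epithelial genes TSPAN8, CDH17 and KLK7 were among those that rose most. Of 14518 genes tested, 5706 passed (39.3%), 2935 of them higher (20.2%) and 2771 lower (19.1%) at d5. Changes of 1 or more on the log2 scale were found for 718 higher genes (4.95%) and for 1319 lower genes (9.09%). Without TMM scaling the calls were 1967 higher and 3484 lower, so that 36.1% of calls were higher in place of 51.4%, and the median of all genes was -0.09 in place of 0.02 on the log2 scale. The direction was the same within replicates 1 and 2 as within replicates 3 and 4 for 2933 of the 2935 higher genes and for 2739 of the 2771 lower genes, a count to which the calls themselves contribute, and for 10870 of all 14518 tested. The size differed, with a median log2 change among the lower genes of -1.1 in replicates 1 and 2 and -0.71 in replicates 3 and 4. With each pair of close replicates summed to 1 library, 973 genes passed (529 higher, 444 lower). Without CFSE d1 replicate 2, 1795 genes were higher and 2694 lower.

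The genes that rose furthest included proteins of the epithelial surface and of Wnt feedback. APCDD1 (ENSG00000154856, chr18:10454632-10489946, GRCh37), a membrane inhibitor of Wnt signaling, was at 1.48, 2.72, 7.09 and 5.0 CPM at d1 and 18.6, 20.7, 82.8 and 90.8 CPM at d5. The groups did not overlap, which the rule for naming the 12 most increased and 12 most decreased genes required. Of all tested genes, 22.7% did not overlap with d5 above and 18.0% with d5 below. The log2 fold change of APCDD1 was 3.70 ± 0.85 (SE; adjusted p = 0.00324, edgeR). KLK7 (chr19:51479724-51487355), a secreted serine protease of the kallikrein family, was at 12.6, 11.8, 16.6 and 16.3 CPM at d1 and 101, 105, 97.4 and 100 CPM at d5. Unlike APCDD1, it reached nearly the same level in all 4 later libraries, with a log2 fold change of 2.81 ± 0.26 (adjusted p = 7.08e-06). CDH17 (liver-intestine cadherin), an intestinal adhesion protein, was at 16.4, 15.5, 21.1 and 18.2 CPM at d1 and 71.7, 84.0, 165 and 162 CPM at d5. Its later level was higher in replicates 3 and 4, and the log2 fold change was 2.76 ± 0.61 (adjusted p = 0.00274). The tetraspanin TSPAN8 rose by a log2 fold change of 2.96 ± 0.62, from 2.34 to 4.78 CPM at d1 to 14 to 33.9 CPM at d5.

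The other 8 of the 12 most increased genes rose by log2 fold changes of 2.38 to 2.92, all without overlap of the groups, which the rule for naming them required. They were PRR15L, the potassium channel gene KCNJ8, the membrane serine protease gene TMPRSS4, the stress-induced sestrin SESN3, the methyltransferase-like gene METTL7A, the vesicle release factor CADPS, the neuroendocrine chaperone SCG5 and the serpin SERPINB5 (maspin). CADPS, for example, was at 7.83, 9.12, 29.6 and 31.9 CPM at d1 and at 94.1, 102, 114 and 108 CPM at d5, so the replicate pairs differed at d1 and were close at d5. SESN3 lay between 3.09 and 4.43 CPM at d1 and between 18.0 and 23.4 CPM at d5.

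Of the 12 most decreased genes, several were far higher in d1 replicates 1 and 2 than in replicates 3 and 4. SNAI1 (chr20:48599517-48605423), a transcription factor that represses E-cadherin, was at 288, 258, 11.1 and 8.69 CPM at d1 and 3.96, 3.76, 3.1 and 2.52 CPM at d5. All 4 later values lay below all 4 earlier ones, as the naming rule required. The level at d1 was far higher in replicates 1 and 2 than in 3 and 4, and the log2 fold change was -5.41 ± 0.90 (adjusted p = 0.00044). CCN2, a secreted matrix protein and YAP target, showed the same split, with 200, 181, 10.2 and 9.77 CPM at d1 and 6.41, 7.11, 2.22 and 3.79 CPM at d5. GADD45B, a stress-induced signaling protein, went from 498, 533, 35.0 and 32.1 CPM to between 18.9 and 26.1 CPM. The vasoactive peptide gene ADM and the EGF receptor ligand gene HBEGF had it too, at 80.7, 84.7, 9.42 and 9.61 CPM and at 134, 124, 11 and 11.5 CPM at d1.

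Other genes among these 12 were high in all 4 early libraries. NEAT1 (chr11:65190245-65213011), the long noncoding RNA that builds nuclear paraspeckles, was at 366, 229, 661 and 609 CPM at d1 and 37.3, 42, 100 and 61.8 CPM at d5. Here replicates 3 and 4 were the higher pair at d1, and the log2 fold change was -2.95 ± 0.48 (adjusted p = 0.000365). SNHG12, a host transcript of small nucleolar RNAs, fell from 85, 66.7, 29.4 and 34.3 CPM to between 3.12 and 7.54 CPM. IZUMO1, TM4SF19 and the microRNA host transcript MIR22HG fell by 2.98, 2.60 and 2.65 on the log2 scale. JUN, the last of the 12, is described with the immediate early genes.

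**Figure D2:**
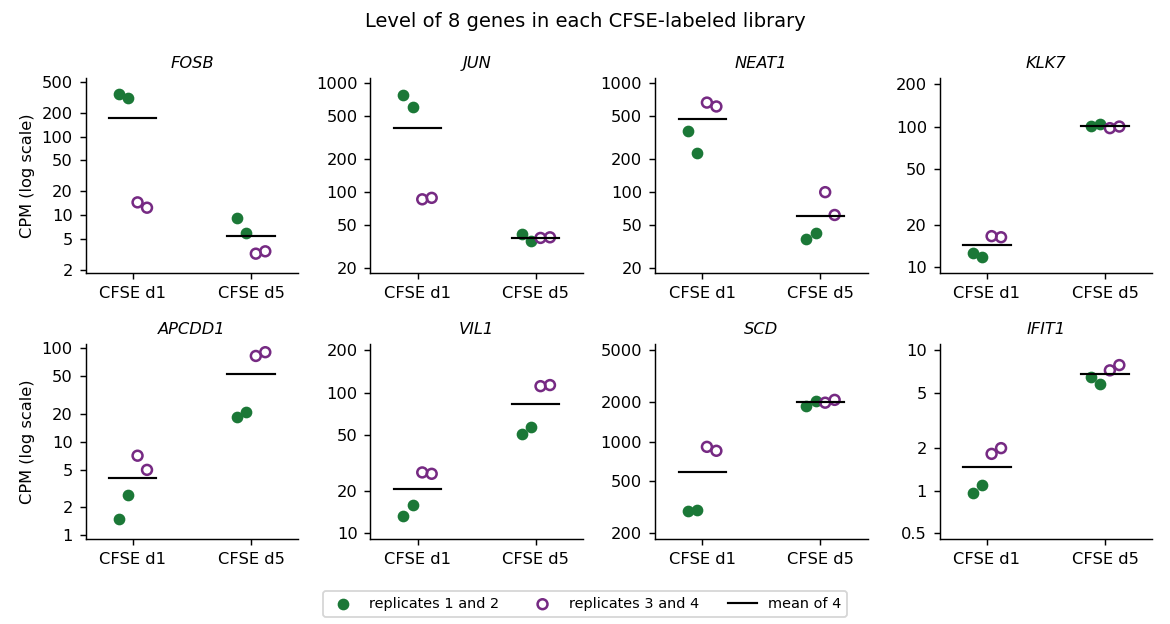
CPM (log scale) of 8 genes in the CFSE libraries at d1 and d5. Filled points are replicates 1 and 2, open points replicates 3 and 4, and the line is the mean of 4. KLK7, APCDD1, VIL1, SCD and IFIT1 are higher in all 4 d5 libraries, while FOSB, JUN and NEAT1 are lower, with d1 replicates 1 and 2 far above 3 and 4 for FOSB and JUN and under them for NEAT1.

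Immediate early genes fell as a group. Of 18 tested, 14 were lower at d5, none was higher and 4 did not pass, with a median log2 fold change of -1.68 against 0.02 over all genes, where 19.1% were lower. FOS (chr14:75745529-75748933), the partner of JUN in the AP-1 factor, was at 712, 658, 35.4 and 38.2 CPM at d1 and 35.8, 28.0, 23.3 and 21.5 CPM at d5. The groups overlapped by 1 value, since replicates 3 and 4 at d1 were already near the later level (log2 fold change -3.73 ± 0.78, adjusted p = 0.00192). FOSB (chr19:45971253-45978437) was at 349, 310, 14.5 and 12.4 CPM at d1 and 9.1, 5.91, 3.22 and 3.45 CPM at d5. It was among the 12 most decreased genes, which were chosen without overlap. JUN was at 774, 599, 86.0 and 88.7 CPM at d1 and 41.1, 35.9, 38.1 and 38.6 CPM at d5. Both pairs of replicates thus fell for these AP-1 genes, by unequal amounts.

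Outside AP-1, 8 of 10 members were lower. EGR1 (chr5:137801168-137804992), a zinc finger factor, was at 1210, 1010, 225 and 228 CPM at d1 and 222, 180, 146 and 123 CPM at d5, and replicates 3 and 4 at d1 were close to the highest d5 library. KLF6, a factor of the Krüppel family, was at 657, 608, 191 and 203 CPM at d1 and between 94.8 and 117 CPM at d5, so it did not overlap. ZFP36, which speeds the decay of inflammatory mRNAs, fell from 180, 164, 98.1 and 90.6 CPM to between 54.2 and 71.8 CPM. ATF3, NR4A1, KLF4, DUSP1, IER2, IER3, FOSL1 and JUNB also fell, and EGR2, EGR3, JUND and FOSL2 did not pass, the last 3 with log2 fold changes of -0.03, 0.02 and 0.07. The median of the list was -2.06 within replicates 1 and 2 and -0.69 within replicates 3 and 4, and 6 of the 14 passed with close replicates summed.

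Promoters of the immediate early genes were searched in RefSeq (GRCh38.p14) over 250 bases before the start of transcription, on both strands, for 15 members found there. The CArG box, bound by serum response factor, stood in 1 of 15, EGR1, and in 1.14% of all 27305 promoters. The cyclic AMP response element TGACGTCA stood in 2 of 15 (DUSP1 and JUND) and in 1.77% of all, and the AP-1 site TGANTCA in 0 of 15 and in 6.6% of all. The stretch of EGR1, shown because it alone holds CArG boxes (2, in capitals), lies on the plus strand at chr5:138465329-138465428.
EGR1: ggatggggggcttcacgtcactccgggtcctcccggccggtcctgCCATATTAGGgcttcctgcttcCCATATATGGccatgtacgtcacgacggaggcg

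Secreted proteases changed in both directions. Among metalloproteinases and the plasminogen system, 6 of 15 tested genes were higher and 5 lower, against 20.2% higher and 19.1% lower over all genes. MMP1, interstitial collagenase, was at 107, 114, 0.877 and 0.977 CPM at d1 and 0.791, 0.268, 0.175 and 0 CPM at d5. MMP10, stromelysin-2, was at 44.3, 46.0, 1.32 and 0.706 CPM at d1 and 0.0791, 0.134, 0 and 0 CPM at d5, and both were far higher in d1 replicates 1 and 2 than in the other 6 libraries. MMP3, stromelysin-1, had too few libraries with 10 counts to be tested and held 628, 662, 5 and 22 counts at d1 and 1, 1, 0 and 0 counts at d5. MMP13, collagenase 3, held 52, 50, 1 and 1 counts at d1 and none at d5. PLAUR, the urokinase receptor, fell by 1.07 on the log2 scale. TIMP1, an inhibitor of metalloproteinases, rose from 217, 249, 214 and 201 CPM to 496, 488, 324 and 334 CPM, and SERPINA1 (alpha-1-antitrypsin) rose from between 0.809 and 3.65 CPM to between 10.1 and 17.7 CPM.

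Some other transcripts with few counts were also highest in these d1 libraries. KRT14, a keratin of basal epidermis, held 23, 20, 2 and 0 counts at d1 and none at d5, and KRT6A held 47, 55, 6 and 6 counts at d1 and 4, 6, 2 and 0 counts at d5. CHGA, the secretory granule protein of enteroendocrine cells, held 57, 43, 2 and 2 counts at d1 and 0, 1, 0 and 0 counts at d5. TNF, an inflammatory cytokine, held 36, 28, 0 and 1 counts at d1 and 0, 0, 1 and 0 at d5. None of these 4 genes passed the filter for testing. Other list members under the filter went the other way or hardly differed. NUPR1, for example, held 10 counts over the d1 libraries and 31 over the d5 libraries, and CHGB held 6 and 5. Among NF-kB targets, 4 of 11 tested genes were lower and 1 higher, where 19.1% of all genes were lower and 20.2% higher. TNFAIP3, a brake on NF-kB, fell from 35.5, 31.0, 9.64 and 9.12 CPM to between 4.32 and 6.04 CPM.

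**Figure D3:**
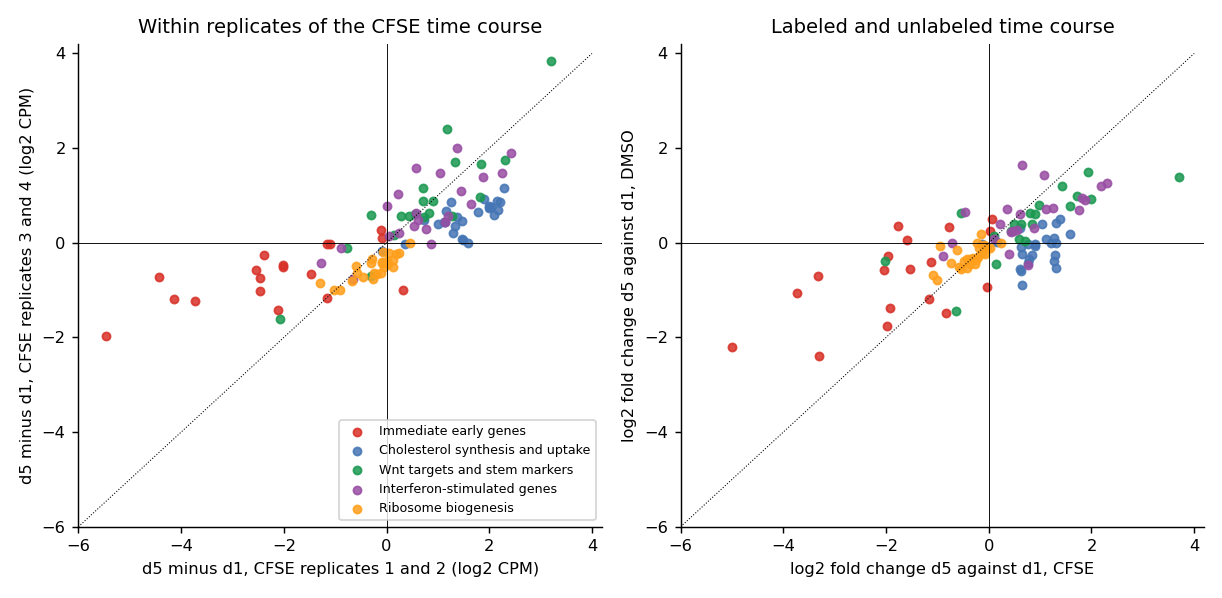
Change from d1 to d5 in log2 CPM within CFSE replicates 1 and 2 (horizontal) and within replicates 3 and 4 (vertical) for members of selected gene lists. Each point in the left panel is a gene, and the right panel sets the log2 fold change in CFSE cells (horizontal) against that in DMSO cells (vertical) for the same genes, with equal values on the dotted line. On the left, immediate early genes lie to the lower left with a larger fall on the horizontal axis (list medians -2.06 and -0.69), and cholesterol genes lie to the upper right (list medians 1.48 and 0.55).

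Wnt targets rose. Of 20 tested members of the list of Wnt targets and intestinal stem markers, 15 were higher and 1 lower, with a median log2 fold change of 0.75, where 20.2% of all genes were higher. Among the 10 Wnt feedback genes, 8 were higher. AXIN2, a scaffold of the complex that destroys beta-catenin, was at 258, 267, 327 and 324 CPM at d1 and 425, 437, 717 and 741 CPM at d5. NKD1, another feedback inhibitor, was at 12.4, 12.6, 21.6 and 18.6 CPM at d1 and 32.8, 30.2, 71.0 and 60.7 CPM at d5. NOTUM, which removes the lipid from Wnt proteins, rose from between 6.65 and 9.05 CPM to 18.0, 17.7, 40.9 and 42.1 CPM. For all of these the later level was higher in replicates 3 and 4 and the groups did not overlap. DKK1, a secreted Wnt inhibitor, was the member that fell, from 77.4, 80.7, 12 and 16 CPM to 17.3, 19.9, 4.62 and 4.32 CPM, with overlap.

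Crypt and stem cell genes of the list rose in 7 of 10 tested cases. ASCL2, a transcription factor of intestinal stem cells, was at 9.01, 12, 26.0 and 26.1 CPM at d1 and 38.1, 37.1, 77.3 and 89.6 CPM at d5 (log2 fold change 1.72 ± 0.38, adjusted p = 0.0026). TNFRSF19, a receptor gene of the crypt base, was at 16.3, 15.3, 25.4 and 26.7 CPM at d1 and 71.6, 85.8, 87.7 and 89.0 CPM at d5. CD44, a hyaluronan receptor, rose from between 16 and 21.5 CPM to between 39.6 and 63.4 CPM. EPHB2, LEF1, SOX9 and PTK7 rose by log2 fold changes of 0.50 to 0.85. LGR5, the receptor that marks crypt base stem cells, was at 0.222 to 1.14 CPM at d1 and 0.201 to 0.818 CPM at d5 and did not pass (adjusted p = 0.326). OLFM4, another stem cell marker, had 1 count in all 8 libraries. The median of the list was 0.73 within replicates 1 and 2 and 0.61 within replicates 3 and 4, and 1 of the 15 passed with close replicates summed. The TCF/LEF site CTTTGAT stood in 1 of 15 promoters found (SP5) and in 2.28% of all.

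Differentiation genes of the intestine moved unevenly. Of the 11 tested colorectal epithelium markers, 6 were higher and none lower, while 1 was lower without CFSE d1 replicate 3. By comparison, 20.2% of all genes were higher and 19.1% lower. VIL1 (chr2:219283844-219318018), villin of the brush border, was at 13.2, 15.8, 27.0 and 26.4 CPM at d1 and 50.8, 56.9, 111 and 113 CPM at d5 (log2 fold change 2.0 ± 0.31, adjusted p = 0.000301). CDX2, the homeobox factor of intestinal identity, was at 52.7, 56.9, 62.1 and 59.5 CPM at d1 and 132, 131, 192 and 220 CPM at d5. LGALS4, CDH1, KRT19 and KRT8 also rose, the call of KRT8 being lost without CFSE replicate 1 or 2 of either day, while KRT18, EPCAM, HNF4A, GPA33 and CEACAM5 did not pass. Of 12 tested enterocyte genes, VIL1 was higher and EMP1 lower, and 17 of 29 listed ones had too few counts to test. The enterocyte counts were 2 higher and 4 lower with the replicate number as a block, 3 and 4 with the replicate pair as a term, 3 and 1 without DMSO d1 replicate 4, and 1 and 3 without CFSE d1 replicate 3. The fatty acid binding protein FABP2, the sucrase-isomaltase gene SI and the carbonic anhydrase CA4 had no count in any of the 8 libraries. Of the goblet and secretory list, 4 of 22 genes could be tested and 3 rose. MUC13, a membrane mucin, was at 7.24, 7.95, 14.8 and 13.2 CPM at d1 and 48.6, 50.3, 56.4 and 61.3 CPM at d5. AGR2, a disulfide isomerase needed for mucin folding, rose from between 19.2 and 24.4 CPM to between 49 and 55.7 CPM. The goblet mucin gene MUC2 held 8 counts over the 4 d1 libraries and 1 over the d5 libraries.

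RNA of cholesterol synthesis genes rose along nearly the whole pathway in CFSE cells. In DMSO cells, given further below, 0 of these genes were higher and 1 lower, with a median of -0.03. Of 25 genes of synthesis and uptake, 20 were higher at d5, none was lower and 5 did not pass, with a median log2 fold change of 0.90. Over all genes, 20.2% were higher and 19.1% lower. By role, 6 of 8 mevalonate steps, 11 of 12 sterol steps and 3 of 5 genes of uptake and SREBP2 control were higher. FDFT1, squalene synthase at the first committed step of sterol synthesis, was at 214, 229, 504 and 497 CPM at d1 and 862, 896, 825 and 882 CPM at d5 (log2 fold change 1.26 ± 0.22, adjusted p = 0.000569). IDI1, an isomerase of the isoprenoid units, was at 161, 143, 196 and 212 CPM at d1 and 327, 356, 311 and 344 CPM at d5. SQLE, squalene epoxidase, was at 78.5, 84.9, 178 and 188 CPM at d1 and 266, 296, 284 and 294 CPM at d5. For these enzymes the d5 libraries were close to each other, and d1 replicates 1 and 2 were the lowest of all.

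MSMO1, which removes methyl groups from the sterol ring, was at 83.3, 71.2, 159 and 200 CPM at d1 and 312, 376, 303 and 359 CPM at d5. TM7SF2, a sterol reductase, had the largest change of the list, with a log2 fold change of 1.58 ± 0.25. SREBF2 (chr22:42229109-42303310), which encodes SREBP2, was at 198, 211, 314 and 303 CPM at d1 and 481, 493, 560 and 565 CPM at d5 (log2 fold change 1.03 ± 0.16, adjusted p = 0.000303). PMVK, HSD17B7, INSIG1 and MVD were among those that did not pass. The median of the list was 1.48 within replicates 1 and 2 and 0.55 within replicates 3 and 4, and 10 of the 20 passed with close replicates summed.

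The sterol regulatory element TCACNCCAC, a letter form of the SREBP site, stood in 1 of the 18 promoters found for this list, that of SREBF2 itself, and in 0.875% of all promoters. The stretch with the element in capitals is on the plus strand at chr22:41832927-41833026 (GRCh38.p14) and is shown because the encoded factor controls the list.
SREBF2: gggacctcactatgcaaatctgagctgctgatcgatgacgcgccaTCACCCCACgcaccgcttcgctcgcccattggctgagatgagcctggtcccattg

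Fatty acid genes rose as well in CFSE cells. Of 10 tested genes of fatty acid synthesis, 7 were higher and 1 lower, where 20.2% of all genes were higher and 19.1% lower. The 7 were 4 without CFSE d1 replicate 2 and 2 with close replicates summed. In DMSO cells, 0 of the 10 synthesis genes were higher and 1 lower, with a median of -0.275. Without the library labeled DMSO d1 replicate 4, 0 were higher and 5 lower there. The interaction passed for 3 of the 10, for 7 without that library and for 0 with the replicate number as a block. SCD, stearoyl-CoA desaturase, was at 295, 303, 913 and 852 CPM at d1 and 1860, 2050, 1980 and 2080 CPM at d5 (log2 fold change 1.75 ± 0.30, adjusted p = 0.00049). ACSS2, which makes acetyl-CoA from acetate, and ELOVL6, a chain elongase, rose by log2 fold changes of 0.97 and 0.59, and FASN, fatty acid synthase, had 0.38 and did not pass. Of 10 genes of fatty acid oxidation and PPAR targets, 5 were higher, among them HADHA and HADHB of the mitochondrial trifunctional protein, and 1 was lower. Of 5 genes of sterol efflux and LXR targets, LPCAT3 was higher and MYLIP lower, and both calls were lost with the replicate number as a block.

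**Figure D4:**
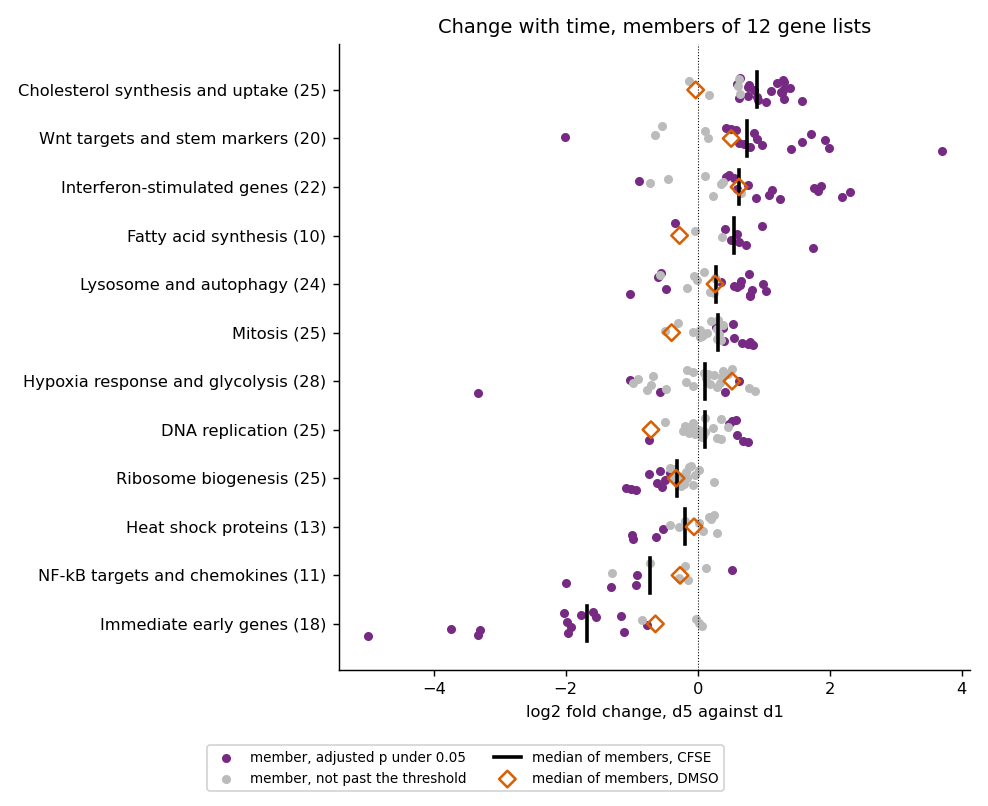
Log2 fold change of d5 against d1 in CFSE-labeled DLD1 for the tested members of 12 gene lists, with the number tested in parentheses. Each point is a gene, dark where it passed the test and gray where not, the bar is the list's median in CFSE cells and the diamond that in DMSO cells. Cholesterol genes have a median of 0.90 with 20 of 25 higher, and immediate early genes a median of -1.68 with 14 of 18 lower.

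Interferon-stimulated genes, which cells make in answer to interferon or viral RNA, rose, many of them from a few CPM. Of 22 tested, 14 were higher and 1 lower, with a median log2 fold change of 0.63, and the effectors gave 10 of 15. The share of all genes that were higher was 20.2%. IFIT1 (chr10:91152303-91166244), which binds foreign RNA caps, was at 0.96, 1.1, 1.83 and 2.01 CPM at d1 and 6.41, 5.77, 7.19 and 7.84 CPM at d5 (log2 fold change 2.19 ± 0.43, adjusted p = 0.0012). LGALS3BP (chr17:76967320-76976029), a secreted galectin ligand, was at 217, 246, 339 and 313 CPM at d1 and 630.0, 633, 666 and 721 CPM at d5. OAS1, OAS2, OAS3, IFIT2, IFIT3, IFI44, IFI6, MX1, RIGI, IFIH1 and PARP9 were among the others that rose. IRF7, a factor that amplifies the interferon response, fell from 36.5, 39.4, 22.8 and 24.6 CPM to between 14.5 and 17.9 CPM. ISG15 was at 31.4 to 46.3 CPM at d1 and 35.5 to 49.7 CPM at d5 and did not pass (adjusted p = 0.212). The median was 0.69 within replicates 1 and 2 and 0.60 within replicates 3 and 4, and 2 of the 14 passed with close replicates summed. The count was 9 without CFSE d1 replicate 1, d1 replicate 2 or d5 replicate 4.

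The interferon-stimulated response element was searched in the same promoters as GAAA, any 2 bases and GAAA, on both strands. It stood in 12 of the 19 promoters found for this list and in 3.07% of all 27305. The 12 were those of ISG15, IFI6, IFI44L, IFI44, IFIH1, HERC5, IFIT3, IFIT1, OAS3, IFI27, LGALS3BP and BST2. Of these, ISG15, HERC5 and IFI27 did not pass the test and IFI44L and BST2 had too few counts, so holding the letters did not go with a call in each case. The stretches of 5 members that rose are shown in the direction of transcription, with each match in capitals, and TTTC, any 2 bases and TTTC is the same element on the other strand. IFIT1 (chr10:89392462-89392561, plus strand) and IFIT3 (chr10:89327796-89327895, plus strand) hold 2 matches each. OAS3 lies at chr12:112938286-112938385 (plus), LGALS3BP at chr17:78979927-78980026 (minus) and IFI6 at chr1:27672294-27672393 (minus).
IFIT1: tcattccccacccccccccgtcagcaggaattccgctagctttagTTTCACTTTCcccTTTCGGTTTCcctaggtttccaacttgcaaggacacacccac
IFIT3: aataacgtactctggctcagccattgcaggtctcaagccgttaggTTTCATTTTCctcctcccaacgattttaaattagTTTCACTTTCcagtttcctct
OAS3: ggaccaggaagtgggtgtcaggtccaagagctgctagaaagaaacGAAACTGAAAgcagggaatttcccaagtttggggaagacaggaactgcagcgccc
LGALS3BP: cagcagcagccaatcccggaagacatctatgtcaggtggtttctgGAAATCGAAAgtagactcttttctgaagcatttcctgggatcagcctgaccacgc
IFI6: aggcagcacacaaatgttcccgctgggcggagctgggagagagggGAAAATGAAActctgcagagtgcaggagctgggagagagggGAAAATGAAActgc

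Genes of growth and division did not move as a block. Of 25 ribosome biogenesis genes, 10 were lower and none higher, with a median log2 fold change of -0.31. By comparison, 19.1% of all genes were lower. MYC, the factor that drives this program, was at 362, 416, 279 and 256 CPM at d1 and 217, 199, 138 and 129 CPM at d5 (log2 fold change -0.94 ± 0.19, adjusted p = 0.0014). NOP2, a methyltransferase of ribosomal RNA, was at 214, 218, 165 and 174 CPM at d1 and 111, 103, 89.3 and 79.8 CPM at d5. PPAN, GAR1, GNL3, NOP56, RRP9, RRP12, UTP20 and NCL were the others that fell. The count of 10 was 6 without CFSE d5 replicate 4 and 1 with close replicates summed.

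Of 25 mitosis genes, 10 were higher and none lower, with a median of 0.31. The median was 0.46 within replicates 1 and 2 and 0.165 within replicates 3 and 4. TOP2A, the topoisomerase that untangles sister chromatids, was at 507, 494, 612 and 650.0 CPM at d1 and 972, 996, 964 and 903 CPM at d5 (log2 fold change 0.76 ± 0.13, adjusted p = 0.00049). KIF20A, a kinesin of cell division, rose from between 75.9 and 85.9 CPM to between 128 and 154 CPM, and CDK1, the kinase of mitotic entry, from between 88.3 and 102 CPM to between 130 and 189 CPM. MKI67, the proliferation antigen Ki-67, was at 581, 570.0, 640.0 and 617 CPM at d1 and 364, 188, 855 and 554 CPM at d5 and did not pass. The count of 10 was 4 without TMM scaling, 1 with close replicates summed, and 5, 4, 6 and 6 without CFSE d1 replicate 1, d1 replicate 2, d5 replicate 1 or d5 replicate 2. Of 25 DNA replication genes, 6 were higher and 1 lower (POLE), with a median of 0.11. The median was 0.37 within replicates 1 and 2 and -0.19 within replicates 3 and 4, so the pairs differed in direction. The 6 were 2 without TMM scaling, 2 without CFSE d1 replicate 1, d1 replicate 2, d5 replicate 1 or d5 replicate 2, and 0 with close replicates summed, where 20.2% of all genes were higher in the full fit. TYMS, thymidylate synthase, was at 164, 175, 199 and 216 CPM at d1 and 332, 344, 266 and 271 CPM at d5.

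Cell cycle exit genes gave 2 higher and 2 lower of 13, where 20.2% of all genes were higher and 19.1% lower. The list median was -0.39 within replicates 1 and 2 and 0.31 within replicates 3 and 4, so the pairs differed in direction. No cell cycle exit gene was lower without CFSE d1 replicate 1, d1 replicate 2, d5 replicate 1 or d5 replicate 2. Without d5 replicate 3 or 4, 1 was lower, and without d1 replicate 3 or 4, 4 were. The 2 higher were 1 without d1 replicate 2, d5 replicate 1 or d5 replicate 2, and 3 without d1 replicate 4. CDKN2C (chr1:51426417-51440306), which encodes the CDK4 and CDK6 inhibitor p18, was at 9.01, 7.65, 7.53 and 9.07 CPM at d1 and 23.4, 23.2, 24.0 and 27.0 CPM at d5. Both groups were tight, and its log2 fold change of 1.55 ± 0.13 had an adjusted p of 3.13e-06. CDKN1C and CDKN2B, 2 other CDK inhibitor genes, fell, CDKN1C not with the replicate number as a block.

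Lysosomal genes rose more often than they fell. Of 24 lysosome and autophagy genes, 11 were higher and 4 lower, where 20.2% of all genes were higher and 19.1% lower. NPC2, which carries cholesterol out of lysosomes, was at 116, 125, 116 and 121 CPM at d1 and 205, 214, 195 and 217 CPM at d5 (log2 fold change 0.79 ± 0.11, adjusted p = 0.000118). The proteases CTSD and CTSH rose by log2 fold changes of 1.04 and 0.82, and the autophagy receptor SQSTM1 and the channel MCOLN1 fell. Of 17 genes of folding in the endoplasmic reticulum, 6 were higher and 1 lower, and the higher ones included the disulfide isomerases PDIA4 and PDIA6 and the lectin chaperone CALR. Heat shock proteins gave 4 lower and none higher of 13. NRF2 targets gave 8 higher and 3 lower of 19, with AKR1C3, an aldo-keto reductase, rising by 2.49 ± 0.37 on the log2 scale from 0.591 to 1.03 CPM at d1 to 3.59 to 6.04 CPM at d5.

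Adhesion genes rose more often than they fell, with 11 higher and 6 lower of 24, against 20.2% higher and 19.1% lower of all genes. The 6 were 2 without CFSE d1 replicate 1, d1 replicate 2 or d5 replicate 4 and 3 without d5 replicate 3, and with close replicates summed 1 was higher and 0 lower. Integrins gave 7 higher and 2 lower of 11, and laminins and matrix genes 2 higher and 3 lower of 7. ITGA1, a collagen receptor subunit, was at 1.92, 1.62, 1.46 and 2.39 CPM at d1 and 5.54, 5.57, 9.0 and 8.3 CPM at d5. COL17A1, a transmembrane collagen of hemidesmosomes, rose from between 7.76 and 10 CPM to 29.5, 24.3, 41.6 and 40.1 CPM. LAMA5, THBS1, PLEC, ITGA2 and ITGA5 were among the members that fell. YAP-TEAD targets gave 2 higher and 4 lower of 14, with TGFB2 and AMOTL1 higher and CCN1 and CCN2 lower, and actin cytoskeleton genes gave 2 higher (4 without CFSE d5 replicate 3) and 2 lower of 18. Epithelial-mesenchymal genes moved both ways in both roles. Of 11 tested epithelial genes, CDH1 and the claudin gene CLDN3 rose and the splicing regulators ESRP1 and ESRP2 fell, by 0.72 and 0.35 on the log2 scale. Of 3 tested mesenchymal genes, ZEB1 and SNAI1 fell and VIM, which encodes the filament protein vimentin, rose by 1.4. The epithelial cadherin CDH1 rose from between 543 and 614 CPM to between 881 and 1010 CPM, and ZEB1, a repressor of it, fell from between 1.85 and 3.84 CPM to between 0.532 and 1.05 CPM.

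Signaling and stress lists were mixed. EGF receptor ligands and ERK feedback genes gave 7 higher and 3 lower of 18, with the ligand gene BTC and the ERK phosphatase DUSP6 higher and HBEGF, DUSP5 and PHLDA1 lower. These counts were 1 and 2 without CFSE d1 replicate 2, 4 and 1 without d1 replicate 1, 5 and 1 without d5 replicate 4, 3 and 3 without TMM scaling, and 0 and 1 with close replicates summed. The FOXO list gave 3 higher and 6 lower of 15, and the insulin receptor substrate IRS1 rose from 51.1, 50.8, 82.6 and 77.8 CPM to between 130 and 147 CPM while IRS2 fell. ATF4 targets gave 2 higher and 5 lower of 20, and DDIT3 (CHOP) fell from 49.9, 43.8, 28.9 and 28.5 CPM to between 9.57 and 12.1 CPM. Hypoxia and glycolysis genes gave 2 higher and 3 lower of 28, Hedgehog genes 3 and 1 of 12, complement genes 3 and 3 of 9, keratins 3 and 2 of 9, polyadenylated histones 3 and 0 of 7, metallothioneins 1 and 0 of 7, and genes of the mitochondrial genome 3 and 1 of 13. Over all genes, 20.2% were higher and 19.1% lower. With the replicate block, hypoxia genes gave 1 higher and 5 lower and keratins 1 and 2. No hypoxia gene was higher without CFSE replicate 1 or 2 of either day. Without CFSE d1 replicate 1, ATF4 targets gave 2 and 3, Hedgehog genes 2 and 0, and metallothioneins and mitochondrial genes 0 and 0. No mitochondrial gene was higher without d1 replicate 2 or d5 replicate 2 either, none was lower without d5 replicate 3 or 4, and no metallothionein passed without d1 replicate 2, d5 replicate 1 or d5 replicate 4. Without d1 replicate 4, 4 ATF4 targets and 3 metallothioneins were higher, and without d5 replicate 2, 6 Hedgehog genes and 1 keratin. Without DMSO d1 replicate 4, 5 Hedgehog genes and 2 metallothioneins were higher.

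Gene level and gene type went with direction. Among the tenth of genes with the lowest mean level, 126 were higher and 398 lower of 1452, and among the tenth with the highest level 455 were higher and 116 lower. Of 12501 protein-coding genes, 2776 were higher and 2192 lower. Of 883 long noncoding RNAs, 86 were higher and 240 lower, and of 26 small nucleolar RNAs, none was higher and 19 were lower, with a median log2 fold change of -1.60. In the DMSO libraries, 13 of these long noncoding RNAs were higher and 181 lower, and 0 and 13 of the small nucleolar RNAs. Reads outside annotated genes were more frequent at d1, and the part of this in the counts by gene type was not tested. Small nucleolar RNAs lie within introns of host genes, and the counting does not separate them from longer transcripts that cover them.

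MALAT1, a nuclear long noncoding RNA, was at 281, 235, 424 and 412 CPM at d1 and 82.0, 130, 140.0 and 107 CPM at d5. Of the host transcripts of small nucleolar RNAs, SNHG1 fell from 310.0, 275, 142 and 146 CPM to between 37.3 and 57.2 CPM, and GAS5 from 214, 216, 152 and 156 CPM to between 99.5 and 117 CPM. SNHG5, SNHG15 and ZFAS1 also fell, and SNHG16 did not pass, with a log2 fold change of -0.06. These 7 noncoding genes and the counts by gene type were chosen after their values were seen.

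The same interval in the DMSO libraries, which share no sample with the CFSE libraries, gave 1793 higher (12.4%) and 1902 lower genes (13.1%). Without the library labeled DMSO d1 replicate 4 the counts were 2773 and 3304. Of the 718 genes that rose by a log2 fold change of at least 1 in labeled cells, 272 rose and 0 fell in the DMSO libraries. Of the 1319 that fell as much, 761 fell and 3 rose. These overlaps include the library labeled DMSO d1 replicate 4 and were not counted without it. NEAT1 was at 434, 300, 644 and 163 CPM at DMSO d1 and 63.3, 44, 76.6 and 157 CPM at DMSO d5. APCDD1 was at 12.9, 11.9, 25.8 and 180.0 CPM at DMSO d1 and 117, 101, 195 and 193 CPM at DMSO d5, so its log2 fold change there was 1.39 with all 8 libraries (adjusted p = 0.159) and 3.09 without d1 replicate 4 (adjusted p = 0.000626). TSPAN8 went from 1.53 to 2.90 in the same way.

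Whether the change with time differed between labeled and unlabeled cells was tested as an interaction. It passed for 145 genes (0.999%), with the CFSE change above the DMSO change for 123 (0.847%) and under it for 22 (0.152%). The count was 880 without DMSO d1 replicate 4, 623 with DESeq2 and 10 with the replicate number as a block. Leaving out CFSE d1 replicate 3 or 4 gave 401 and 428, and each other library but DMSO d5 replicate 2 moved the count to between 16 and 79. CDKN2C was at 20.9, 22.2, 18.6 and 23.3 CPM at DMSO d1 and 21.9, 27.9, 26.9 and 23.9 CPM at DMSO d5, and its change was larger in CFSE cells by 1.31 ± 0.17 on the log2 scale (adjusted p = 0.00863). The labeled cells thus lay under the DMSO cells at d1 and among them at d5. KLK10, a kallikrein, REEP2, a protein of endoplasmic reticulum tubules, and ALDH1L1, a folate enzyme, had differences of 1.2, 1.41 and 1.15, and their CFSE d1 values also lay under all DMSO d1 values. TOP2A differed by 1.22 ± 0.18, with 809, 819, 852 and 668 CPM at DMSO d1 and 462, 647, 633 and 553 CPM at DMSO d5, so it went opposite ways.

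The lists are given next for the DMSO libraries, with the test of the difference. Over all genes, 12.4% were higher and 13.1% lower in the DMSO libraries, and the interaction passed for 0.999%. Without the library labeled DMSO d1 replicate 4, 2773 of 14450 genes were higher and 3304 lower, and the interaction passed for 880. With the replicate block it passed for 10 of 14518. Cholesterol genes gave 0 higher and 1 lower of 25 in the DMSO libraries, with a median of -0.03. They gave 1 higher and 7 lower without the library labeled DMSO d1 replicate 4. FDFT1 was at 809 to 881 CPM at DMSO d1 and 852 to 962 CPM at DMSO d5. The interaction passed for 6 of the 25 cholesterol genes, for 13 without that library and for 0 with the replicate block. DNA replication genes gave 0 higher and 19 lower of 25 in the DMSO libraries (25 lower without that library), and the interaction passed for 4, for 22 without that library and for 0 with the block. Mitosis genes gave 0 higher and 10 lower, 22 lower without that library and 6 with the block, with an interaction for 2, for 19 without that library and for 1 with the block. Wnt targets gave 6 higher and 2 lower of 20 in DMSO, and 11 higher and 2 lower without that library, with an interaction for 0 of the 20 and for 1 without it. Interferon-stimulated genes gave 6 higher and 0 lower of 22 there, and 13 and 1 without that library. Immediate early genes gave 1 higher and 4 lower of 18, with a median of -0.64, and 1 higher and 7 lower with a median of -0.87 without that library, while the median in CFSE cells was -1.68. The interaction passed for 0 of the 18 immediate early genes and for 1 without that library. FOS was at 83.4, 79.4, 27.5 and 24.7 CPM at DMSO d1, and SNAI1 at 2.13 to 4.44 CPM, far from its 288 and 258 CPM in CFSE d1 replicates 1 and 2. The interaction of SNAI1 did not pass (-5.11 ± 1.26, adjusted p = 0.0594), nor did that of FOS (adjusted p = 0.202).

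The sorted DLD1 libraries, which also share no sample with the time course, gave the values of these genes in LRCs against BULK. There 906 of 13592 genes were higher in LRCs (6.67%) and 1072 lower (7.89%), 1978 in all. The count was 963 without BULK replicate 1 and 4591 with the replicate number as a block. The labels number LRC and BULK libraries alike, and whether a number stands for a single sorted culture is not stated. Counts and p-values that follow are from the fit without the block, which ignores any such pairing. Of the genes that rose by at least 1 with time, 626 were tested in the sorted libraries, and 85 were higher and 35 lower in LRCs. Of those that fell as much, 912 were tested, and 83 were higher and 3 lower in LRCs. DNA replication genes gave 20 lower and 0 higher of 25 in LRCs, mitosis genes 18 lower, ribosome biogenesis genes 14 lower and cholesterol genes 6 lower, while 14 lysosome genes and 6 polyadenylated histones were higher. TYMS, for example, was lower in LRCs by 0.72 on the log2 scale (adjusted p = 0.00157) and NPC2 higher by 0.32 (adjusted p = 0.0128). IFIT1 was higher by 1.1 (adjusted p = 0.00408), and APCDD1, KLK7, FOS and JUN did not pass.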

How the data were processed

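RNA sequencing was measured in 64 libraries of colorectal cancer lines, of which 24 of DLD1 were used here. Total RNA was extracted with RNeasy Micro, made into TruSeq libraries and sequenced as single-end reads. The authors deposited, for every library, a table of raw counts by gene, not normalized, with 54127 Ensembl genes. The submitters' processing notes name hg19, TopHat, HTSeq and DESeq without versions. The strand setting and the gene annotation are not given in the sources used here, so overlapping and antisense genes cannot be told apart, and genes with near-identical copies are uncertain. Summary rows such as reads outside genes were left out of library sizes and tests. A symbol was matched to 39260 genes (72.5%), and a GRCh37 position to 47098. Promoter sequences came from RefSeq.

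Counts were analyzed in R 4.3.3 with edgeR 4.0.16. A gene was tested where 4 or more libraries of the fit held 10 or more counts, TMM scaled the libraries, and edgeR's quasi-likelihood test (two-sided, Benjamini-Hochberg adjusted p under 0.05) was run with group means of the 16 controls in 1 fit (12 residual degrees of freedom). The 8 sorted libraries were fitted apart. Log2 CPM used a prior count of 2. Alternatives were DESeq2 1.42.0, other scalings and filters, the replicate number as a block and leaving out libraries. The check of pairing correlated deviations from group means of libraries with the same number. In CFSE libraries r was 0.16, 0.28, 0.29 and 0.17. The main fit still had no block, and the replicate number entered only as an alternative setting. Unlike numbers within replicates 1 and 2 or within 3 and 4 gave 0.13 to 0.29 and across these pairs -0.36 to -0.13, so the values separate 1 and 2 from 3 and 4 and not each number. In DMSO libraries it was -0.25, 0.18, 0.01 and -0.27. Steps were tested on simulated data.

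The members and the 35 gene lists, written by hand, were chosen with earlier results of these data known. The lists held 646 different genes, of which 524 were tested, 113 had too few counts and 9 had no matching symbol. Genes were named when they were the 12 most increased or the 12 most decreased (adjusted p under 0.05, mean log2 CPM of at least 3, groups not overlapping), among the 3 smallest p-values of a list, among the 5 smallest p-values of the interaction (mean log2 CPM of at least 1) or markers of colorectal epithelium. Other list members were named to account for their list. Some genes are not reported here.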

Additional observations from a re-analysis of the deposited data

Results flagged for a closer look

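In 4 of 254 groups of 4 libraries of the named genes, 1 library lay far from the other 3 (Dixon's criterion, which chance meets in about 1 of 20 groups). The highest was TSPAN8 at 4.78 CPM in a d1 library and ADM at 7.52 CPM in a d5 library. The lowest was CALR at 833 CPM in a d5 library and KRT19 at 583 CPM in a d1 library.

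For 17 named genes the change with time differed between CFSE and DMSO cells in the test of the interaction. The values given here include the library labeled DMSO d1 replicate 4. This count was partly fixed by selection, since the 5 smallest p-values of the interaction were a rule for naming genes. Of all 14518 genes tested, 145 passed (0.999%). In kallikreins and secretion the CFSE change was above the DMSO change by 1.86 for KLK7, 1.2 for KLK10, 2.03 for CADPS, 1.16 for AGR2 and 1.41 for REEP2 on the log2 scale. Among genes of the cell cycle the difference was 1.21 for POLA1, 1.09 for TYMS, 0.90 for KIF20A, 1.22 for TOP2A and 1.31 for CDKN2C. Among metabolic genes it was 0.93 for the isoprenoid isomerase IDI1, 1.81 for SCD and 1.15 for ALDH1L1. Signaling and secreted proteins gave 1.42 for DUSP6, 1.13 for IRS1 and 1.76 for complement C5. The annexin ANXA3 was the one with a change under that of DMSO cells, by -0.60. With the replicate number as a block, 5 of the 17 passed (CDKN2C, REEP2, ALDH1L1, AGR2 and TOP2A, adjusted p = 0.0379 to 0.0478) and the other 12 had an adjusted p of 0.0562 to 0.0937.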

How the results depend on the processing

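For the change with time in CFSE cells, the count of 5706 genes was 973 with close replicates summed (529 higher, 444 lower), and 4216 to 6312 with 1 library left out. Higher genes numbered 1795 to 3103 with 1 library left out, and lower genes 1616 when a mean log2 CPM of at least 3 was asked. Changes of at least 1 on the log2 scale numbered 718 higher and 1319 lower, and in all 1131 with 10 counts in every library, 672 with close replicates summed and 204 when tested against that size. The interaction count of 145 was 89 with DESeq2 size factors, 623 with DESeq2, 85 without TMM scaling, 454 without a filter, 10 with the replicate block and 16 to 880 with 1 library left out. LRCs against BULK gave 1978 genes, 4591 with the replicate block and 963 to 1784 with 1 library left out. In CFSE cells the block moved list counts by over 1.5 times for enterocyte genes (1 higher and 1 lower to 2 and 4), keratins (3 higher to 1), hypoxia genes (2 and 3 to 1 and 5), cell cycle exit (2 lower to 1), sterol efflux (1 and 1 to 0 and 0), and interferon-stimulated, goblet and colorectal marker genes (1, 0 and 0 lower to 2, 1 and 1). In DMSO cells, where the numbers do not pair the libraries, it gave 11 in place of 6 higher Wnt genes, 10 in place of 6 higher interferon-stimulated genes and 6 in place of 10 lower mitosis genes. DMSO cells gave 3695 genes, and 6077 without DMSO d1 replicate 4. Over all lists 259 different genes were called, and 63 with close replicates summed. That setting, which has fewer libraries, gave 1 for mitosis, 1 for ribosome biogenesis, 10 for cholesterol, 6 for immediate early, 2 for interferon-stimulated and 1 for Wnt genes. Mitosis gave 5 with 10 counts in every library, 4 without TMM scaling and 4 to 13 with 1 library left out. Ribosome biogenesis gave 16 with the replicate pair as a term and 6 to 14 with 1 library left out. Interferon-stimulated genes gave 9 with 10 counts in every library, 9 without TMM scaling and 9 to 14 with 1 library left out. KRT18 turned from 0.12 to -0.006 without TMM scaling, neither called. The causes were not tested. Settings that leave out DMSO d1 replicate 4, ask for a mean level, keep protein-coding genes, sum close replicates or add their pair as a term were chosen after seeing the data. With the replicate block, CDKN1C, MYLIP, LPCAT3, P4HA2 and KRT8 lost their call. Genes with few counts per library carry a large counting error.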
